A study of Drosophila melanogaster with 21 samples.

Results

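Loss of the RNA helicase MLE was examined in wing imaginal discs, the larval epithelia that form the adult wing and the dorsal thorax, of male Drosophila melanogaster. Homozygous mutants for the mle.9 allele (3 libraries of polyadenylated RNA) were compared with heterozygous males that carry the same allele over CyO-GFP (2 libraries). These are 5 of the 21 libraries of the series, chosen by their titles, and both groups come from 1 Bloomington stock. The larvae were in the third instar, reared at 25 °C, and sexed by eye before dissection. CyO-GFP is a balancer, a multiply inverted chromosome 2 marked with GFP that does not recombine with its partner. The controls have 1 copy of it and the mutants have none, and mle itself lies on chromosome 2, so the allele and the balancer cannot be told apart. The labels do not give the lesion of the allele, the number of larvae or discs in a library, or whether libraries of a group came from separate crosses, so the p values measure the spread between these libraries, which may be technical.

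Male flies have 1 X chromosome and females have 2, and males raise transcription of their X to match. The male-specific lethal (MSL) complex carries this out: MSL1 and MSL2 form its core, MSL3 reads a histone mark on transcribed genes, MOF acetylates histone H4 at lysine, and MLE unwinds the non-coding RNAs roX1 and roX2 so that they can join. Males without the complex die late in larval life or as pupae. The series asked what the loss of single parts of the complex does to X-linked and autosomal expression.

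The heterozygous libraries held 3774192 and 3013611 counted reads and the mutant libraries 1659482, 2379651 and 2483435, so depth moved with genotype and its part in the results was not tested. Mitochondrial genes took 1.31% and 1.14% of counts in heterozygotes and 1.09% to 1.77% in mutants. Correlations of libraries within a genotype (0.944 to 0.967) lay above all those between genotypes (0.892 to 0.936). Of 9082 genes tested, 829 were called at an adjusted p under 0.05 (9.13%), 587 lower in mutants (6.46%) and 242 higher (2.66%). With the scaling taken from all genes in place of autosomal genes, 371 were lower and 285 higher, and the median log2 fold change of all genes moved from -0.08 to 0.03. The number called rested on single libraries: it was 220 without heterozygous library 1 and 255 without mutant library 1.

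The roX RNAs were nearly lost. roX2 (X, 11579065 to 11580432) was at 271 and 379.6 CPM (counts scaled to library size) in the heterozygous libraries and at 2.92, 1.26 and 2.61 CPM in the mutant libraries. roX1 (X, 3857230 to 3862697) was at 3657 and 3761 CPM against 63.6, 116 and 130 CPM. The groups were far apart for both, with log2 fold changes of -7.16 ± 0.31 (SE, adjusted p = 6.09e-07) for roX2 and -5.16 ± 0.31 (adjusted p = 9.98e-06) for roX1. The transcript of mle (2R, 5974857 to 5980778) was higher in mutants, at 223, 235 and 244 CPM against 146 and 147 CPM (log2 0.67 ± 0.18, adjusted p = 0.0421). Its call was lost when any 1 of the 5 libraries was left out (adjusted p from 0.0593 to 0.283), with the direction kept. The level of mle does not check the genotype labels, which do not say what the allele does to the transcript.

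The protein partners did not pass. mof, the X-linked acetyltransferase gene, lay at 50.5 and 49.4 CPM in heterozygotes and 26.8, 42.9 and 36.6 CPM in mutants (log2 -0.48 ± 0.23, adjusted p = 0.234). msl-2 lay at 100.4 and 109 CPM against 73.5, 92.1 and 70.9 CPM (log2 -0.41 ± 0.19, adjusted p = 0.242). Mutant libraries were below both controls for these 2 genes. The same held for 66.7% of X genes tested, such as mof, and for 17.4% of those on chromosomes 2 and 3, such as msl-2. Mutant libraries overlapped their controls for msl-1 (log2 0.28 ± 0.23) and msl-3 (log2 0.20 ± 0.24). Of 21 chromatin factors tied to dosage compensation, 2 fell and none rose, beside 6.46% and 2.66% of all genes tested. Both that fell are on the X, where 27.3% of tested genes fell. They are Sxl, the female switch gene that blocks msl-2 translation (log2 -1.2 ± 0.21), and nonA, an RNA-binding protein gene (log2 -0.88 ± 0.19). Without heterozygous library 1 neither passed, at adjusted p = 0.0510 for Sxl and 0.185 for nonA, and nonA also missed without mutant library 1 (adjusted p = 0.0818).

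The X fell as a whole relative to the autosomes. The median X gene minus the median autosomal gene, in centred log2 CPM, was 0.37 and 0.35 in the heterozygous libraries and -0.23, -0.27 and -0.26 in the mutant libraries. The group means were 0.36 ± 0.01 (SD, n = 2) and -0.25 ± 0.02 (SD, n = 3). Their difference of -0.61 puts the mutant X at 65.3% of the heterozygous level relative to the autosomes. It was far larger than the SD within either group, and the exact two-sided permutation p was 0.1, the smallest that 3 against 2 libraries allow. The X without the roX genes held 14.6% and 14.7% of all counts in heterozygotes and 10.3%, 9.95% and 10.4% in mutants. Absolute RNA per cell was not measured, so these are levels relative to chromosomes 2 and 3, whose median was set near 0 by the scaling.

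The change ran through nearly the whole X. Of 1416 X genes tested, 1264 (89.3%) had a log2 fold change below 0 against 49.8% of 7367 genes on chromosomes 2 and 3, and the median was -0.62 (middle 50% of genes from -0.89 to -0.33) against 0.00. Of the X genes, 243 (17.2%) lay below -1. In 945 X genes (66.7%) all 3 mutant libraries lay below both controls, against 25.3% of all genes. By the test, 386 X genes fell (27.3%) and 12 rose (0.847%). On chromosomes 2 and 3, 189 fell (2.57%) and 219 rose (2.97%). The X thus held 65.8% of the genes that fell and 4.96% of those that rose, with 15.6% of the genes tested. The count of X genes that fell was 64 without heterozygous library 1, 80 without mutant library 1 and 229 without heterozygous library 2, while the median X fold change stayed between -0.63 and -0.62 over the 5 fits that left out 1 library.

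**Figure D1:**
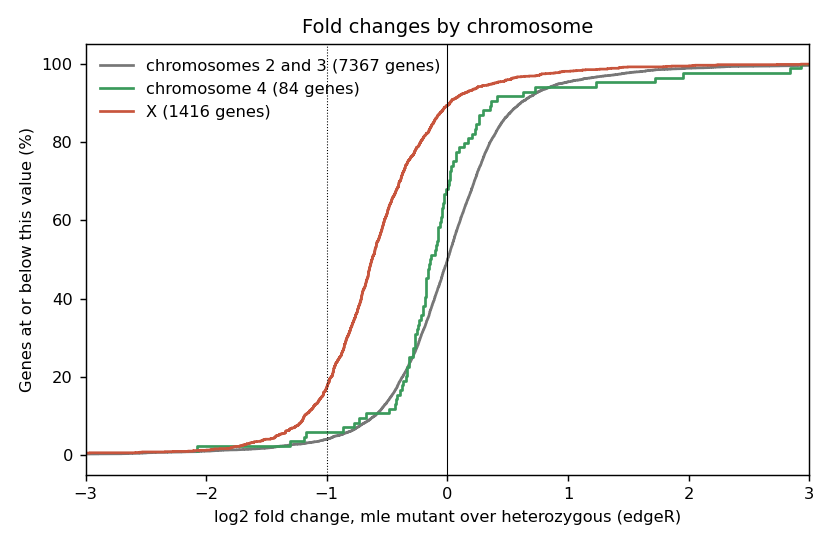
Cumulative share of tested genes (vertical axis, percent) at or below each log2 fold change of mle mutants over heterozygotes (horizontal axis, shown from -3 to 3), for the X, chromosome 4, and chromosomes 2 and 3. The X curve is shifted to the left over most of its length, with a median of -0.62, and the other curves cross 50% near 0. The dotted line marks -1.

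Well expressed X genes were called most often, and their median fell most. Among X genes of low mean expression (under 22.6 CPM) the median X fold change was -0.51 and 6.16% of genes fell. In the middle class it was -0.63 and 30.2% fell, and in the highest class (over 72.9 CPM) it was -0.69 and 46.7% fell. The class bounds split the X and autosomal genes, pooled, into equal numbers. Autosomal genes in the same 3 classes had medians from -0.03 to 0.04. Prior counts and counting noise weigh most in the lowest class. X genes of short, middle and long span had close medians of -0.65, -0.62 and -0.60, and 60 X-linked non-coding RNA genes had a median of -0.58.

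All 22 bins of the X of 1 Mb with at least 20 tested genes had a median below 0, from -0.70 to -0.51, and the share of genes called lower ran from 14.7% to 39.6%. The bin from 23 to 24 Mb, with 13 genes, had a median of -0.32 with 53.8% below 0. Genes within 0.1 Mb of the nearer roX gene had a median of -0.68 (29 genes), those 0.5 to 1 Mb away -0.59 (73 genes) and those over 3 Mb away -0.64 (665 genes). The middle 50% of genes overlapped widely between these classes.

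Several X genes moved much further than the chromosome. white (w), which encodes a pigment precursor transporter, was at 83.2 and 60.7 CPM in heterozygotes and 1.75, 0.420 and 0.746 CPM in mutants (log2 -6.26 ± 0.39, adjusted p = 9.98e-06). The labels give no w genotype. In the msl-2 stock compared below, whose controls also carry CyO-GFP, w fell alike (log2 -6.35 ± 0.30). The edgeR test of the difference gave 0.09 ± 0.67 (adjusted p = 0.987). For w, the mutation and the balancer cannot be told apart. GstT3, a glutathione S-transferase gene, was at 30.6 and 24.8 CPM against 3.50, 3.36 and 7.09 CPM (log2 -2.53 ± 0.39). obst-A, which encodes a chitin-binding protein of the cuticle, was at 187 and 180 CPM against 18.1, 51.7 and 23.1 CPM (log2 -2.55 ± 0.40). NetA, a netrin gene of axon guidance, was at 69.5 and 30.4 CPM against 5.83, 5.04 and 13.4 CPM (log2 -2.58 ± 0.50). The heterozygous libraries differed more than 2-fold from each other for NetA, and for spirit (log2 -3.75 ± 0.63) and CG3823 (log2 -3.47 ± 0.61), 2 others among the X genes with the lowest values. w and GstT3 passed in every fit that left out 1 library. Without heterozygous library 1, obst-A (adjusted p = 0.108), NetA (0.0717), spirit (0.131) and CG3823 (0.121) did not pass. obst-A also missed without heterozygous library 2 (0.0517), and NetA and CG3823 missed without mutant library 1 (0.0944 and 0.0702) or 2 (0.0694 and 0.0745).

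The 5 X genes that fell with the highest mean over the libraries were Act5C, Cyp1, RpL7A, roX1 and RpS6. RpL7A and RpS6 encode cytoplasmic ribosomal proteins. Act5C, a cytoplasmic actin gene, was at 5900.2 and 6276 CPM in heterozygotes and 3187, 3591 and 3146 CPM in mutants (log2 -0.88 ± 0.23, adjusted p = 0.0343). Cyp1, a cyclophilin gene, was at 2708 and 2490 CPM against 960.2, 1266 and 857 CPM (log2 -1.34 ± 0.24, adjusted p = 0.00613). Control and mutant libraries did not overlap for either gene. Both lost the call without heterozygous library 1 (adjusted p = 0.262 for Act5C and 0.0653 for Cyp1) and without mutant library 1 (0.144 and 0.0605). Act5C also lost it without heterozygous library 2 (0.210) or mutant library 2 (0.0632), and with scaling on all genes (0.0720).

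The 12 X genes that rose stood out against the chromosome. CG15784 was at 15.4 and 34.5 CPM in heterozygotes and 836.5, 773 and 780.1 CPM in mutants (log2 5.0 ± 0.35, adjusted p = 2.58e-05). Nt5b rose from 23.5 and 21.4 to 114, 105.5 and 101 CPM (log2 2.25 ± 0.20) and CG2909 from 12.5 and 13.5 to 60.7, 79.4 and 42.9 CPM (log2 2.23 ± 0.29). These 3 genes passed in every fit that left out 1 library. upd2 and upd1, which encode secreted ligands of the JAK/STAT pathway, had log2 fold changes of 2.93 ± 0.60 and 1.42 ± 0.39. Appl, the amyloid precursor protein gene, had 1.42 ± 0.24, and Gclc, which encodes the catalytic subunit for glutathione synthesis, had 1.33 ± 0.24. sog, an inhibitor of BMP ligands, had 0.90 ± 0.20. The other 4 were CG15047 (4.50 ± 0.86), CG1582 (1.15 ± 0.22), AdamTS-B (1.05 ± 0.28) and pre-rRNA:CR45856 (0.96). Without heterozygous library 1, upd2 (adjusted p = 0.121), upd1 (0.297), Appl (0.0655), Gclc (0.0655), sog (0.201), CG1582 (0.0752), CG15047 (0.113) and AdamTS-B (0.345) did not pass. upd2 (0.0618), upd1 (0.0800), sog (0.0805), CG15047 (0.0728) and AdamTS-B (0.175) also missed without mutant library 1. upd2 (0.0670) and sog (0.0503) missed without heterozygous library 2, and upd1 (0.103) and AdamTS-B (0.114) without mutant library 2.

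Cellular machines coded on both the X and the autosomes showed the difference within a list. Each of 11 X-linked respiratory chain genes fell, with a median log2 fold change of -0.96, against 2 of 52 autosomal genes of the chain, whose median was -0.39 and of which 1, COX7AL, rose (log2 4.79 ± 0.98, from 0 and 0.297 CPM). COX6B, a subunit of cytochrome c oxidase, fell from 301 and 280.2 CPM to 99.8, 91.6 and 72.8 CPM (log2 -1.73 ± 0.20, adjusted p = 0.000513). UQCR-14, a subunit of the cytochrome bc1 complex, fell from 163 and 158 CPM to 51.9, 70.6 and 44.0 CPM (log2 -1.53 ± 0.22). Both passed in every fit that left out 1 library. A count of 0 in a library allows up to 3 counts, which is 1.04 CPM in heterozygous library 2, counting error only.

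Of 13 X-linked genes of cytoplasmic ribosomal proteins, 8 fell (median -0.88), against 3 of 64 autosomal ones (median -0.31). Reads of ribosomal protein genes with close copies, such as RpS14b and RpS28b, may be shared between the copies. For the proteasome, 4 of 5 X-linked genes fell (median -0.90) against none of 29 autosomal ones (median -0.29), with Rpt6, an ATPase of its base, at log2 -1.03 ± 0.21. For the mitochondrial ribosome, 4 of 11 X-linked genes fell (median -0.67) and none of 59 autosomal ones. The autosomal median there was -0.10, and 0.01 with scaling on all genes. None of 31 tRNA synthetase genes was called. The 3 on the X had a median of -0.59 and the 28 on chromosomes 2 and 3 a median of 0.27, with 27 of the 28 above 0. The autosomal medians stand beside one of 0.00 for all genes of chromosomes 2 and 3, of which 2.57% fell. Of all X genes tested 27.3% fell, with a median of -0.62. The X-linked medians of the mitochondrial ribosome and the tRNA synthetases lay near that of the whole X.

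The counts of these 4 lists moved with single libraries. Without heterozygous library 1, 3 respiratory chain genes, 1 cytoplasmic ribosome gene, 2 mitochondrial ribosome genes and no proteasome gene fell. Without mutant library 1 the counts were 2, 1, 2 and 0, and without heterozygous library 2 the first 2 counts were 8 and 1. Without mutant library 2 the counts were 16, 4, 6 and 6. Rpt6 did not pass without heterozygous library 1 (adjusted p = 0.0835) or mutant library 1 (0.0707). The X-linked medians without heterozygous library 1 were -1.01, -0.85, -0.86 and -0.86. Mutant library 3 stood apart in the ribosome: the summed level of cytoplasmic ribosomal protein genes was 102290 and 99890 CPM in heterozygotes, 94772 and 90563 CPM in mutants 1 and 2, and 59899 CPM in mutant 3. Without that library 8 respiratory chain genes fell, and the autosomal median of cytoplasmic ribosomal protein genes was -0.11 in place of -0.31.

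**Figure D2:**
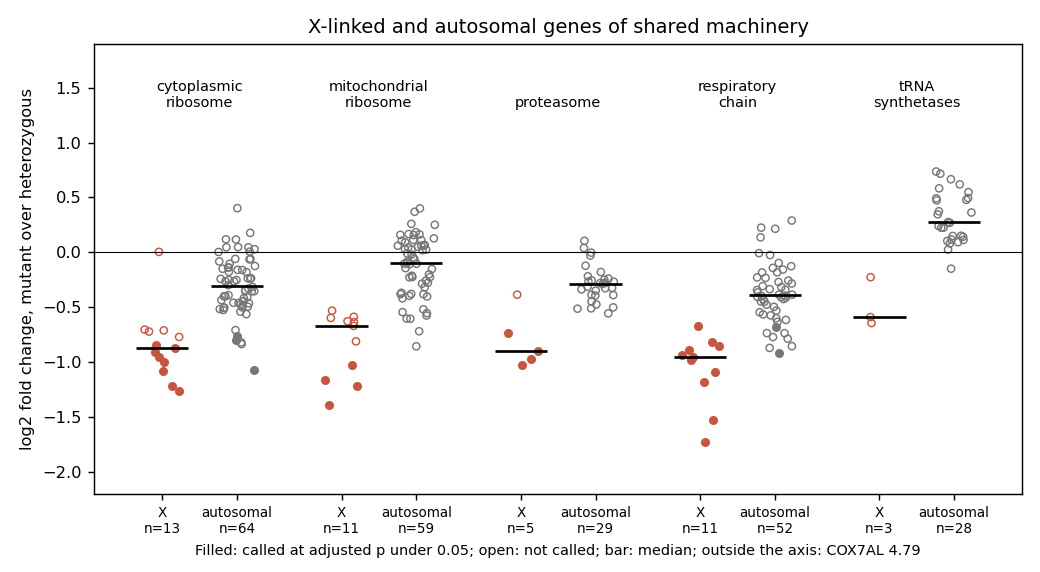
Log2 fold change of mle mutants over heterozygotes (vertical axis) for tested genes of 5 cellular machines, split by X-linked and autosomal genes. Filled points passed the test, open points did not, and bars are medians. In each machine the X-linked median lies lower, from -0.96 to -0.59, than the autosomal one, from -0.39 to 0.27.

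Among called genes, those on chromosomes 2 and 3 had larger median changes than the X genes that fell. Over all genes tested the order was the other way, with medians of 0.00 and -0.62. The test selects called genes by size and spread, so their sizes depend on where a chromosome's values are centred. The median among the 219 genes that rose was 1.41 and 74.9% of them exceeded 2-fold. Among the 189 that fell the median was -1.38 and 73% exceeded 2-fold. Among the 386 X genes that fell, the median was -0.98 and 44% exceeded 2-fold. Without heterozygous library 1, 89 autosomal genes rose and 55 fell, and without mutant library 1, 100 rose and 61 fell.

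Arc1, which encodes a Gag-like protein that forms capsids and carries messenger RNA at synapses, showed the highest log2 fold change. It was at 5.94 and 14.2 CPM in heterozygotes and 2476, 1621 and 1765 CPM in mutants (2R, 14357927 to 14360297, log2 7.61 ± 0.45, adjusted p = 9.98e-06). Its neighbour and paralog Arc2, chosen after its values were seen, went from 4.16 and 2.42 CPM to 85.8, 48.3 and 36.9 CPM (log2 4.06 ± 0.46, adjusted p = 0.00121). Cyp6d2, a cytochrome P450 gene, rose from 5.94 and 11.7 to 268, 311 and 153 CPM (log2 4.79 ± 0.44). Ir40a, an ionotropic receptor gene, rose from 2.67 and 2.76 to 72.3, 53.4 and 46.7 CPM (log2 4.37 ± 0.33). CG14695 rose from 0.891 and 1.38 to 85.8, 127 and 68.3 CPM (log2 6.32 ± 0.43) and CG13284 from 19.0 and 10.0 to 377, 206 and 269 CPM (log2 4.27 ± 0.37). Apart from Arc2, the rule that named these genes required every mutant library to lie above both controls. The rule also named CG43120 (log2 6.53 ± 0.72), GstE6 and CG3397 (log2 4.71 ± 0.80) among the 8 with the highest values. CG43120 (adjusted p = 0.0906) and CG3397 (0.199) did not pass without heterozygous library 1, and CG3397 did not pass without heterozygous library 2 (0.108) or mutant library 1 (0.0704).

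Among the autosomal genes that fell furthest, Nep2, a neprilysin-like metalloprotease gene, went from 102.5 and 89.4 CPM to 7.58, 2.52 and 8.96 CPM (log2 -3.91 ± 0.35, adjusted p = 0.000237). CG15282 went from 84.96 and 82.1 CPM to 1.75, 8.41 and 7.84 CPM (log2 -3.71 ± 0.37) and CG9427 from 90.0 and 58.7 CPM to 6.42, 8.41 and 6.72 CPM (log2 -3.36 ± 0.27). These 3 passed in every fit that left out 1 library. lncRNA:let7C, the host transcript of the let-7 microRNA cluster, went from 13.7 and 7.94 CPM to between 0.841 and 1.75 CPM (log2 -2.98 ± 0.58). It did not pass without heterozygous library 1 (adjusted p = 0.179).

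Since the genotypes differ in 1 whole second chromosome, chromosome 2 was set beside chromosome 3. The share of tested genes called was 6.19% on chromosome 2 (117 higher, 94 lower) and 4.98% on chromosome 3 (102 higher, 95 lower). Within 0.5 Mb of mle, 3 of 34 genes were called (8.82%). Among 1 Mb bins with at least 20 tested genes, the highest share called lay at the base of 2R, from 4 to 5 Mb, where 5 of 23 genes rose (21.7%), and the bin at the base of 2L, from 22 to 23 Mb, had 3 of 21 (14.3%), as high a share as that of a bin on 3L from 18 to 19 Mb (7 of 49). Bins with fewer genes reached higher shares, among them 3L from 25 to 26 Mb, near the centromere, where 3 of 7 genes rose (42.9%). These bins were picked after their values were seen. The 5 genes of 2R are CR41440, lncRNA:CR45471, CR40282, CR43281 and lncRNA:CR46064, and they include overlapping pairs whose reads may be shared. The 3 genes of 2L are Ir40a, lt, which encodes a protein of lysosomal traffic (log2 1.25 ± 0.21), and CG40006 (log2 1.2 ± 0.26).

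A list of 24 autosomal genes next to the centromeres had 3 higher and none lower, with a median of 0.07. Of all tested genes on chromosomes 2 and 3, 2.97% were higher and 2.57% lower. The 3 are lt, CG40006 and Snap25, a gene of synaptic vesicle fusion on 3L. Snap25 rose from 2.97 and 3.80 CPM to 53.7, 47.5 and 33.6 CPM (log2 3.71 ± 0.34, adjusted p = 0.000137). lt (adjusted p = 0.0586) and CG40006 (0.0972) did not pass without heterozygous library 1, and CG40006 also missed without heterozygous library 2 (0.0729) or mutant library 1 (0.0800). Of the list's genes, 1 passed in the fit with the fewest and 4 in the fit with the most.

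Chromosome 4 moved little. Its median relative to chromosomes 2 and 3 differed by -0.12 between genotypes, with an exact permutation p of 0.3. Of 84 tested genes 4 rose (4.76%, beside 2.66% of all genes tested) and 1 fell (1.19%, beside 6.46%). unc-13, which primes synaptic vesicles, went from 365 and 338 CPM to 3644, 2760 and 1664 CPM (log2 2.94 ± 0.34), and asRNA:CR43425 (2.84), CR43361 (3.46) and asRNA:CR44029 (1.72) lie within its span. The strand setting of the counting is not given in the sources used here, so reads of these 4 genes cannot be told apart. The gene that fell was mav, a TGF-beta ligand gene (log2 -0.78 ± 0.21). All 5 are named after their values were seen.

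Of 20 genes of the DNA damage response 5 rose, against 2.66% of all genes tested, and none fell. The list's median was 0.41 against -0.08 for all genes, and its 3 X-linked genes had a median of -0.38. The 5 are the 2 subunits of Ku, which binds broken ends for joining, and the 3 subunits of the MRN complex, which senses and trims them. Irbp, the Ku70 gene, was at 20.5 and 19.7 CPM in heterozygotes and 85.2, 117 and 94.1 CPM in mutants (log2 2.30 ± 0.23, adjusted p = 0.000218). Ku80 was at 20.2 and 20.02 CPM against 74.1, 90.4 and 70.2 CPM (log2 1.96 ± 0.22, adjusted p = 0.000447). mre11 was at 59.4 and 68.0 CPM against 195, 258 and 171 CPM (log2 1.71 ± 0.23), and rad50 at 47.8 and 84.2 CPM against 192, 245 and 192 CPM (log2 1.67 ± 0.26). In the msl-2 stock compared below, Irbp, Ku80, mre11 and rad50 also rose, by log2 1.26, 1.23, 1.04 and 1.08 (adjusted p of 0.00239 or less). None of these 4 differed between the stocks by the test (adjusted p from 0.206 to 0.4325). nbs, named as the fifth of the list after its values were seen, had log2 1.54 ± 0.30 in the mle comparison. Between 4 and 6 genes of this list rose over the fits that left out 1 library. p53, the transcription factor of the damage response, was at 21.4 and 16.6 CPM against 35.6, 58.4 and 27.3 CPM and did not pass (log2 1.09 ± 0.33, adjusted p = 0.0671). Of 44 genes of the cell cycle and replication 2 rose and none fell, beside 2.66% and 6.46% of all genes tested. The 2 are genes of DNA synthesis: RPA1, the single-strand binding protein (log2 1.65 ± 0.24), and RnrL, a ribonucleotide reductase subunit (log2 1.13 ± 0.23). RnrL did not pass without heterozygous library 1 (adjusted p = 0.166).

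Stress genes moved in both directions. In the list for JNK signalling and regeneration, 27 genes were tested, of which 5 rose and 4 fell. Of all genes tested 2.66% rose and 6.46% fell, and of the X genes 27.3% fell. Gadd45, a stress-induced gene, was at 16.04 and 16.6 CPM in heterozygotes and 160, 155 and 108 CPM in mutants (log2 3.11 ± 0.25, adjusted p = 4.81e-05). Xrp1, a bZIP transcription factor gene known from cell competition, was at 464 and 465 CPM against 1843, 1698 and 1511 CPM (log2 1.86 ± 0.23). Its dimer partner gene Irbp18 rose (log2 1.61 ± 0.24), as did Traf4, an adaptor of TNF signalling to JNK (log2 1.48 ± 0.20). These 4 were named for the smallest adjusted p among the called genes of the list. That favours close control libraries and higher mutant libraries, so their separation is no further support. The fifth that rose was scaf (log2 1.32). Of the 4 that fell, 3 are on the X: wgn, a TNF receptor gene (log2 -1.23 ± 0.27), and the kinase genes slpr (-0.84) and hep (-0.78) that act above JNK. The other was chrb, an inhibitor of TOR (-1.18). Over the fits that left out 1 library 4 to 8 genes of the list rose, 8 of them without heterozygous library 2. Those that fell numbered 0 without heterozygous library 1 or mutant library 1, 1 without mutant library 2, and 3 or 4 in the other fits.

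Ilp8, which encodes a relaxin-like hormone that delays metamorphosis when discs are damaged, was at 0.594 and 2.07 CPM in heterozygotes and 75.8, 223 and 31.7 CPM in mutants. All mutant libraries were higher, but they lay far apart from each other, and the gene did not pass (log2 6.37 ± 1.61, adjusted p = 0.133). chinmo, a growth regulator gene, was at 23.2 and 98.4 CPM against 583, 704.9 and 173 CPM and did not pass (log2 3.01 ± 1.10, adjusted p = 0.245). Of 10 JAK/STAT genes 3 rose, beside 2.66% of all genes tested. The 3 are the ligand genes upd1 and upd2 and Socs36E, an inhibitor that the pathway induces (log2 1.40 ± 0.23, adjusted p = 0.00481). upd2 was at 1.19 and 1.04 CPM against 9.33, 10.5 and 6.72 CPM, low levels throughout. Socs36E alone passed without heterozygous library 1 or without mutant library 1. Of 13 apoptosis genes none rose, and Dredd, an X-linked caspase gene, fell (log2 -0.68 ± 0.19), as did 27.3% of X genes tested. Dredd missed with scaling on all genes and in each fit that left out 1 library (adjusted p up to 0.270).

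**Figure D3:**
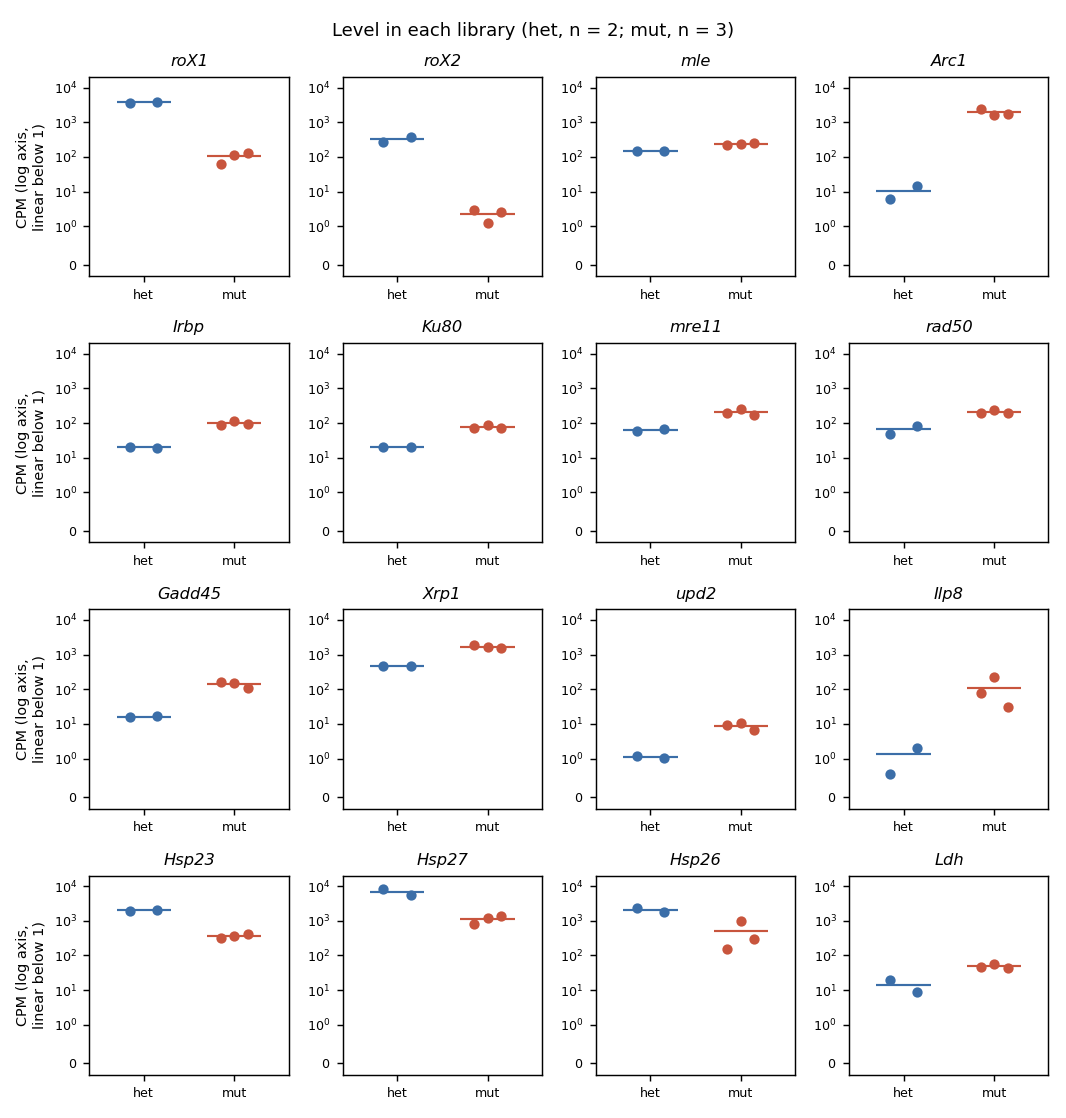
Level of 16 genes in each library, in CPM on a log axis that is linear below 1. Blue points are the 2 heterozygous libraries, red points the 3 mutant libraries, and bars are group means. roX1 and roX2 fall by orders of magnitude, Arc1 rises from 5.94 and 14.2 CPM to 1621 CPM or more, and the mutant libraries spread most for Ilp8 and Hsp26.

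Of 15 heat shock genes tested 5 fell, against 6.46% of all genes, and none rose. Hsp27 was at 8379 and 5485 CPM in heterozygotes and 824, 1215 and 1354 CPM in mutants (log2 -2.62 ± 0.29, adjusted p = 0.000419). Hsp23 was at 1899 and 2072 CPM against 321, 358 and 428.5 CPM (log2 -2.43 ± 0.22, adjusted p = 0.000128). Both encode small chaperones from 1 cluster on 3L, as do Hsp67Ba (log2 -2.21 ± 0.31) and Hsp67Bc (log2 -2.42 ± 0.60), which also fell. Hsp26, from the same cluster, was at 2377 and 1773 CPM against 156, 1015 and 303 CPM and did not pass (log2 -2.08 ± 0.92, adjusted p = 0.316). The fifth gene that fell is CG14207, a small heat shock gene on the X (log2 -1.19 ± 0.20), which missed without mutant library 1 (adjusted p = 0.0508). Between 3 and 7 genes of the list fell over the fits that left out 1 library. Hsc70-4, the main constitutive chaperone gene, was at 4951 and 5238 CPM against 9471, 7915 and 6987 CPM and did not pass (log2 0.67 ± 0.25, adjusted p = 0.133).

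Of 14 genes of the unfolded protein response 1 rose and 1 fell, beside 2.66% and 6.46% of all genes tested. PEK, a translation-inhibiting kinase gene, rose (log2 0.85 ± 0.20). Hsc70-3, the X-linked chaperone of the endoplasmic reticulum, fell (log2 -1.2 ± 0.23), as did 27.3% of X genes tested. Neither passed without heterozygous library 1 (adjusted p = 0.0759 and 0.176) or without mutant library 1 (0.0605 and 0.0702), and PEK also missed without heterozygous library 2 (0.186). Beside 2.66% of all genes tested that rose and 6.46% that fell, 3 of 23 detoxification genes rose and 4 fell. None rose without heterozygous library 1, heterozygous library 2 or mutant library 1, and 5 rose without mutant library 3. The number that fell was 2 without heterozygous library 1 or mutant library 1 and 6 without mutant library 2. GstE6 was at 1.19 and 4.14 CPM in heterozygotes and 118, 170.2 and 49.6 CPM in mutants (log2 5.42 ± 0.90, adjusted p = 0.0370) and missed without heterozygous library 1 (0.268), heterozygous library 2 (0.148) or mutant library 1 (0.112). GstE5 also rose, and reads can be shared within this gene cluster. GstO3 fell from 118 and 128 CPM to 61.3, 49.2 and 41.4 CPM (log2 -1.29 ± 0.21), as did GstS1 (log2 -1.03 ± 0.21), GstT3 and Cyp4e2 (log2 -2.42 ± 0.54). GstS1 and Cyp4e2 missed without heterozygous library 1 (adjusted p = 0.184 and 0.0992) and without mutant library 1 (0.0702 and 0.0554).

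Genes that answer the steroid hormone ecdysone, which times the end of larval life, differed between the control libraries themselves, with a summed level of 12948 and 4534 CPM in the heterozygotes and 2648, 2067 and 2662 CPM in the mutants. The ratio of 2.86 between the controls was the widest among the 37 lists. Of the 25 tested, 9 were more than 3-fold apart between the 2 heterozygous libraries, against 2.39% of the 8379 tested genes that averaged 5 CPM or more, and 8 of the 9 were higher in library 1. Hr4, an early nuclear receptor gene, was at 592 and 29.3 CPM in the heterozygotes and 18.7, 12.2 and 26.9 CPM in the mutants (log2 -4.0 ± 1.51, adjusted p = 0.267). Blimp-1, a repressor gene whose decay times pupation, was at 512 and 55.9 CPM against 14.0, 6.73 and 16.4 CPM (log2 -4.52 ± 1.24, adjusted p = 0.160). ImpE2, an ecdysone-induced gene of disc eversion, was at 6482 and 1474 CPM against 4.67, 0 and 112 CPM (log2 -6.63 ± 2.32, adjusted p = 0.240), where the count of 0 allows up to 1.26 CPM. Mutant libraries lay below both controls for 14 of the 25 genes, against 25.3% of all genes tested, and above both for 2.

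By the test, 2 ecdysone response genes fell, Hr39, a nuclear receptor gene (log2 -1.13 ± 0.30), and Np, a serine protease gene (log2 -1.65 ± 0.35), and 1 rose. That 1 is Ldh, lactate dehydrogenase, at 19.0 and 8.63 CPM against 45.5, 57.2 and 43.7 CPM (log2 1.8 ± 0.32, adjusted p = 0.00667), which missed in the fit of 20 libraries (adjusted p = 0.0749). The count that fell was 8 without heterozygous library 2 and 1 without heterozygous library 1, 0 without mutant library 1 or 2, and 1 without mutant library 3. The list's median was -0.83 in 5 libraries and -0.44 without heterozygous library 1. Neither Hr39 (adjusted p = 0.491) nor Np (0.147) passed without heterozygous library 1, nor without mutant library 1 (0.151 and 0.112) or 2 (0.142 and 0.0721), and Hr39 also missed without mutant library 3 (0.104) and with scaling on all genes (0.0641). The labels give no hours of age within the third instar, and the part of developmental timing in the results was not tested. Heterozygous library 1 is also the library whose removal lowered the count of called genes furthest.

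**Figure D4:**
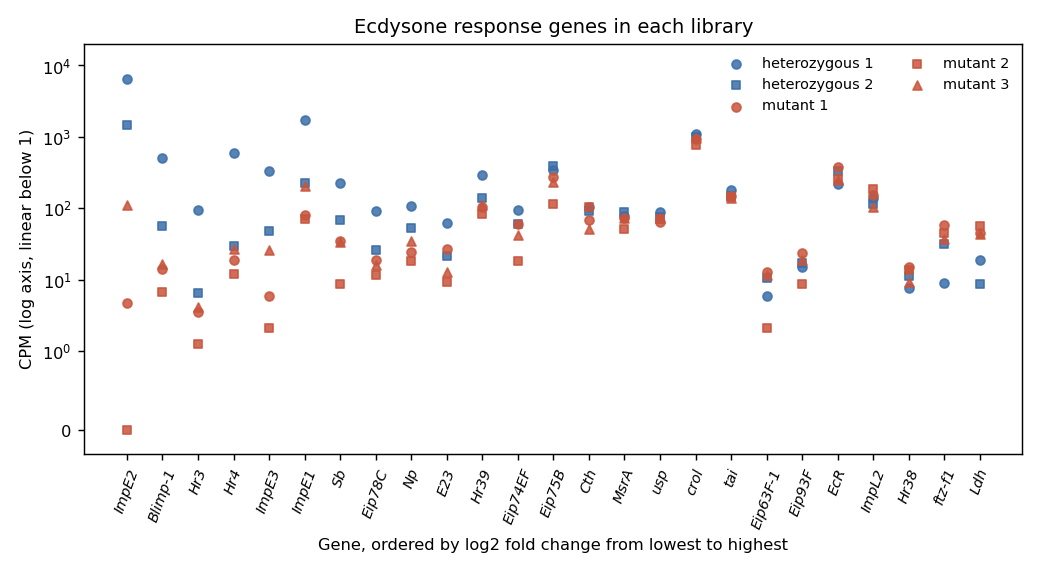
Level of 25 ecdysone response genes in each of the 5 libraries, in CPM on a log axis that is linear below 1, ordered by log2 fold change. Heterozygous library 1 (blue circles) lies far above heterozygous library 2 (blue squares) for ImpE2, Blimp-1, Hr3, Hr4, ImpE3 and ImpE1, and the mutant libraries (red) lie at or below the latter for these genes.

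Of 23 selector genes of the proximal-distal axis 5 fell, against 6.46% of all genes tested, and none rose, with a median of -0.67. al, a homeobox gene of distal appendages, was at 87.3 and 52.8 CPM in heterozygotes and 18.7, 11.8 and 20.5 CPM in mutants (log2 -2.05 ± 0.29, adjusted p = 0.00203). Dll, a selector gene of distal limbs, was at 183 and 110.4 CPM against 58.3, 54.2 and 69.8 CPM (log2 -1.27 ± 0.24). exd, the X-linked partner of Hox proteins, was at 399 and 344 CPM against 158, 209.7 and 196 CPM (log2 -0.98 ± 0.20). bowl (log2 -0.98 ± 0.22) and C15 (log2 -1.08 ± 0.28) also fell. al kept its call in each fit that left out 1 library. Dll (adjusted p = 0.109), exd (0.113) and bowl (0.287) did not pass without heterozygous library 1, nor without mutant library 1 (0.0609, 0.0705 and 0.102), and bowl also missed without mutant library 2 (0.0633). The list had 1 gene that fell without heterozygous library 1, 1 without mutant library 1 and 3 without mutant library 2.

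The 10 genes used as wing disc markers, such as vg, nub and sd, were all detected and all had values below 0 (median -0.71), and none passed. In a fit that drew its spread from 20 libraries of the series 6 of the 10 were lower, and over the fits that left out 1 library 0 or 1 was. vg, the wing selector, was at 204.96 and 175 CPM in heterozygotes and 129, 43.3 and 162 CPM in mutants. Their summed level was 4682 and 4015 CPM against 2984, 2223 and 3120 CPM, with mutant library 2 lowest. In bulk samples fewer cells of a type and less RNA per cell cannot be told apart.

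Along the dorsal-ventral axis 2 of 31 genes fell, a share no higher than the 6.46% of all genes tested, and none rose. Of the 31, 29 had values below 0 (median -0.44). The 2 are E(spl)malpha-BFM, a Notch target (log2 -1.18 ± 0.22), and arm, the X-linked beta-catenin gene (log2 -1.02 ± 0.21). Neither passed without heterozygous library 1 (adjusted p = 0.0961 and 0.176), and arm also missed without mutant library 1 (0.0757). Along the anterior-posterior axis 1 of 30 genes fell, bi, an X-linked target of Dpp (log2 -0.76 ± 0.18), and sog rose. Of 16 genes of EGFR signalling and veins, bs, which marks intervein cells, fell (log2 -1.31 ± 0.34), and of 18 Hippo pathway genes, the X-linked Mer fell (log2 -0.87 ± 0.19). The shares of these 3 lists that fell were likewise at or under the share of all genes. bi missed in every fit that left out 1 library (adjusted p from 0.0506 to 0.140) and with scaling on all genes (0.0503). bs missed without heterozygous library 1 (0.248), mutant library 1 (0.169) or mutant library 2 (0.0865) and with scaling on all genes (0.0600). Mer missed without heterozygous library 1 (0.153), heterozygous library 2 (0.0700) or mutant library 1 (0.0824). The median of the EGFR and vein genes was -0.05, and 0.05 with scaling on all genes.

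The remaining lists gave few calls, to be read beside the 2.66% of all genes tested that rose and the 6.46% that fell. Of 22 cuticle genes 3 fell, against 6.46% of all genes, obst-A, Cpr12A (log2 -1.58 ± 0.35) and pio, a zona pellucida protein gene that was at 1952 and 661 CPM in the controls and 305 to 341 CPM in the mutants (log2 -2.02 ± 0.41). Over the fits that left out 1 library 0 to 2 cuticle genes fell, 0 without heterozygous library 1 and 1 without mutant library 1. pio passed only without heterozygous library 2 (adjusted p from 0.0609 to 0.203 in the others), and Cpr12A missed without heterozygous library 1 (0.213) or mutant library 1 (0.0755). Ldh was the 1 of 14 glycolysis genes that rose, and none did in the fit of 20 libraries. Dif, an NF-kappaB gene, was the 1 of 10 immunity genes that rose (log2 1.6 ± 0.23, adjusted p = 0.00239). Of 10 sex determination genes, the X-linked snf (log2 -1.07 ± 0.18) and Sxl fell. None of 3 Y-linked genes was called. Over the 27 pathway lists, 27 genes rose and 67 fell of 689 tested, and the 94 calls became 31 without heterozygous library 1 and 34 without mutant library 1. In a fit that drew its spread from 20 libraries of the series they were 153, with 10 ecdysone response and 11 proximal-distal genes lower and with 8 JNK and 7 tRNA synthetase genes higher. With scaling on all genes, 3 cytoplasmic ribosomal protein genes were lower in place of 11.

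Markers of other cell types were present at varied levels. The summed level of 15 larval muscle genes was 1113 and 1320 CPM in heterozygotes and 1104 and 1038 CPM in mutants 1 and 2, but 2461 CPM in mutant 3, and none was called. The sum of fat body genes was 308 and 590.5 CPM against 671 to 771 CPM, with Desat1 called higher (log2 0.89 ± 0.23). Desat1 made up most of each sum, at 219 and 330 CPM against 487, 548 and 489 CPM. The median log2 fold change of the fat body genes was 0.105, and -0.27 without heterozygous library 1 or without mutant library 3. The sum of 11 genes of neurons and glia was 3617 and 3392 CPM against 2311, 2210 and 2388 CPM. Of the 11, fax was lower (log2 -0.88 ± 0.24) and Appl higher. fax made up most of each sum, at 3024 and 2613 CPM against 1633, 1213 and 1740 CPM. The median log2 fold change of the 11 genes was -0.05. Desat1 and fax missed without heterozygous library 1 (adjusted p = 0.422 and 0.353), mutant library 1 (0.106 and 0.117) or mutant library 2 (0.0738 and 0.103), and fax also without heterozygous library 2 (0.0997) and with scaling on all genes (0.0735). Hemocyte genes summed to 749 to 948 CPM against 410 to 691 CPM, muscle precursor genes to 676 to 695 CPM against 513 to 597 CPM, and tracheal genes to 1713 to 1865 CPM against 1378 to 1751 CPM, with none called. Salivary gland genes (12.6 to 42.6 CPM) and germline genes (21.4 to 45.9 CPM) were low in all 5 libraries. Of the gut markers 1 was tested, LManII, which fell from 74.9 and 42.1 CPM to 9.92, 8.83 and 13.1 CPM (log2 -2.45 ± 0.30). The part of these cell types in the results was not tested.

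The mle comparison was set beside that of msl-2, the other stock with controls of its own and no library that stood apart, with 4 mutant libraries (msl-2.227) and 3 heterozygous libraries over the same balancer. The comparisons share no library. In a fit of these 12 libraries the median X gene minus the median autosomal gene was 0.28 and 0.28 in mle heterozygotes and -0.28, -0.29 and -0.31 in mle mutants. It was 0.23, 0.23 and 0.27 in msl-2 heterozygotes and lay between -0.11 and -0.06 in msl-2 mutants. The difference between mutants and controls was thus -0.58 for mle (67.1% of the control level) and -0.34 for msl-2 (79.2%), 0.24 further down in mle. The planned exact permutation test of this difference, with genotype labels exchanged within each stock, gave p = 0.44 over 350 splits. Exchanging genotype labels also exchanges the X shift that both stocks have, which widens the spread over the splits, so this p does not bear on whether the shifts differ. A second exact test exchanged stock labels within mutants and within heterozygotes and gave p = 0.00286, the smallest that its 350 splits allow. It was chosen after the data were seen, when every mle mutant value lay below every msl-2 mutant value, so its p adds no support. Each mutation is in 1 stock, so mutation and background cannot be told apart. Over the 12 fits that left out 1 library the difference in X shift ran from -0.25 to -0.23.

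**Figure D5:**
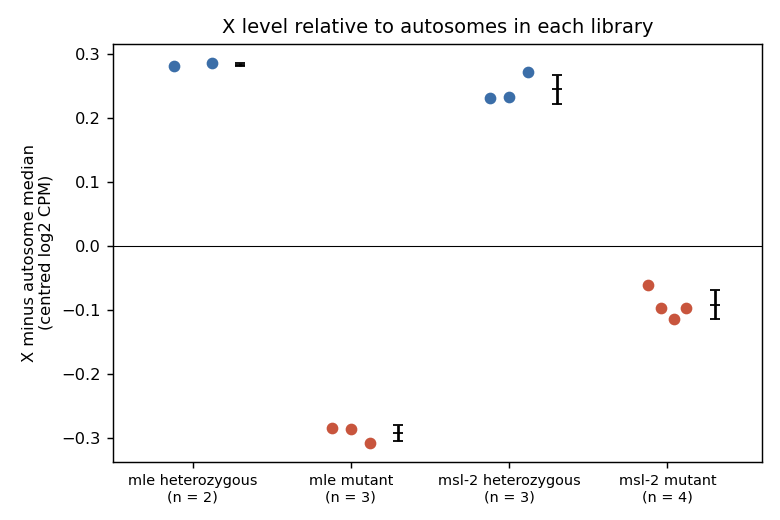
Median of X genes minus median of autosomal genes in centred log2 CPM (vertical axis), for each of 12 libraries in 4 groups. Black bars are the group mean and SD. The heterozygous groups lie close together, at 0.28 and 0.24, and the mle mutants (-0.29) lie below the msl-2 mutants (-0.09).

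Gene by gene, 24 of 9910 genes differed in their response between the stocks (0.242%), 15 with a lower value in mle (0.151%) and 9 with a higher one (0.0908%), and 1124 had an unadjusted p under 0.05. X genes had a median response of -0.61 in mle and -0.34 in msl-2, and the difference was below 0 for 76.9% of X genes against 50.4% of genes on chromosomes 2 and 3. The clearest was roX1, which fell by 5.16 on the log2 scale in mle mutants and by 0.60 in msl-2 mutants (difference -4.55 ± 0.30, adjusted p = 5.3e-07). roX2 fell in msl-2 mutants as well (log2 -6.77 ± 0.24), and its difference of -0.39 ± 0.45 did not pass (adjusted p = 0.757). The 3 other X genes that differed were SWIP (difference -1.36 ± 0.24), SK (-2.08 ± 0.41), a potassium channel gene, and inaE (-1.29 ± 0.26), a lipase gene. On the autosomes CG12129 went down by 2.71 in mle but up by 0.48 in msl-2 (difference -3.19 ± 0.29, adjusted p = 3.54e-05). CG13284 (3.95 ± 0.55), CG15282 (-3.16 ± 0.45), asRNA:CR45140 (1.83 ± 0.29) and CG17574 (1.44 ± 0.23) followed, the last 2 overlapping on 2R. Control levels also differed between stocks for several of these genes. Mean CPM in mle and msl-2 heterozygotes was 3633 and 2574 for roX1, 64.6 and 40.5 for SWIP. SK had 35.4 and 14.5, inaE 47.2 and 33.7, CG12129 23.1 and 73.4, and CG13284 14.2 and 4.13. CG15282 had 81.8 and 114, asRNA:CR45140 26.2 and 23.4, and CG17574 57.45 and 52.3. The part of background was not tested. The count of 24 rested on single libraries. It was 2, 7 and 5 without msl-2 heterozygous library 1, 2 or 4, 4 and 9 without mle heterozygous library 1 or 2, 9 and 13 without mle mutant library 1 or 2, and 12 and 8 without msl-2 mutant library 3 or 4.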

How the data were processed

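Polyadenylated RNA of wing discs was sequenced after TRIzol and column extraction with a TruSeq stranded kit, per the labels' protocols. The authors deposited raw read counts per FlyBase gene, 17558 genes in 21 libraries, with no normalisation. The counts were checked to be whole numbers, and no columns were identical. Reads went through STAR 2.6.1b and featureCounts (Subread 1.6.1) on dm6, also given as BDGP6, per the submitters' processing notes, which list DESeq2 1.18.1 as well. The sources used here name neither annotation release nor strand setting, so overlapping, antisense and paralogous genes are uncertain.

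Genes were placed by FlyBase identifier on an Ensembl annotation with dm6 coordinates. Of these, 17252 matched, and the 306 others held 5.38% to 5.86% of the counts in the 5 mle libraries. They entered the tests but no chromosome class. Counts of 3 mutant and 2 heterozygous libraries were tested with edgeR 4.0.16 in R 4.3.3: filterByExpr (9082 genes), TMM factors from 2L, 2R, 3L and 3R, robust quasi-likelihood fits, Benjamini-Hochberg adjustment over all genes tested, and calls at 0.05. Each log2 fold change is given with its standard error, taken as its size divided by the square root of F. CPM were scaled by the same factors. The common biological coefficient of variation was 0.228. Chromosome shifts used log2 CPM with a prior count of 2 and exact two-sided permutation of libraries. The msl-2 comparison used 12 libraries and 9910 genes. The scripts were tested on simulated data.

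Named genes were the MSL complex, up to 8 X-linked and 8 autosomal genes at each extreme among called genes that averaged 5 CPM or more without overlap between groups, the 5 X-linked genes called lower and the 5 called higher with the highest mean, up to 4 called genes per list, and up to 5 X-linked and 5 autosomal genes that differed from msl-2. Others are said to be chosen after their values were seen. The comparison, lists and rules were chosen with earlier results of these data known. Alternatives covered scaling, filters, DESeq2 1.42.0, the libraries fitted, a replicate block and leaving out each library. Promoter sequences were not analysed here.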

Additional observations from a re-analysis of the deposited data

Results flagged for a closer look

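The following results stood out because the response to the mle mutation differed from the response to the msl-2 mutation in a test of the difference itself. In all, 24 genes differed. Among them roX1 (difference of log2 fold changes -4.55), SWIP (-1.36), SK (-2.08), inaE (-1.29), CG12129 (-3.19) and CG15282 (-3.16) had the lower value in mle. CG13284 (3.95), asRNA:CR45140 (1.83) and CG17574 (1.44) had the higher value in mle. The X shift relative to the autosomes differed by -0.24 between the stocks. The test that exchanged stock labels gave the smallest p it allows (exact permutation p = 0.00286). It was chosen after the data were seen, with the values known to lie apart, so its p adds no support. The planned test exchanged genotype labels within stocks (exact permutation p = 0.44). It also exchanges the X shift common to both stocks, so it does not bear on the difference. The stocks differ in background as well as in the mutated gene, and the part of background was not tested.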

How the results depend on the processing

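The X minus autosome shift of -0.61 kept its direction in every alternative run, from -0.64 to -0.40, the last with no filter on low counts, and chromosome 4 stayed between -0.17 and -0.05. With the heterozygotes of both stocks pooled as controls, an alternative chosen after seeing the data, the X shift was -0.57. Its exact permutation p of 0.0179 is the smallest these libraries allow. All heterozygous libraries were already known to lie above all mle mutants, so this p adds no support, and pooling mixes stock with genotype. In that fit 1772 genes were called, with 666 X genes lower, 538 autosomal genes lower and 481 higher. Counts moved more than fold changes. With TMM factors from all genes 242 X genes and 124 autosomal genes were lower, and 9 genes differed from msl-2. With no filter 338 autosomal genes were lower. In a fit of all 21 libraries 383 genes were called (X lower 108, autosomes lower 115 and higher 142), and in 20 libraries, without msl-1 heterozygous replicate 2, 1350 were called (autosomes lower 342 and higher 394, lists 153). Against a fold of 1.2, 524 were called (X lower 220, autosomes lower 116). DESeq2 called 964 genes and 69 that differed from msl-2. Leaving out 1 library at a time gave 220 to 716 called genes, 64 to 302 X genes lower, 55 to 207 autosomal genes lower, 89 to 223 higher, 31 to 93 calls in lists and 2 to 17 genes that differed from msl-2. Some fits then hold 1 heterozygous library, which is assumed to vary like the mutants. The planned permutation of genotype labels (p = 0.44) does not bear on the difference of -0.24 from msl-2. The added permutation of stock labels gave its smallest possible p (0.00286) but was chosen with the values known. Of 107 called genes among those named by the rule, 42 passed under all 9 alternatives and none reversed. The 9 were scaling on all genes, DESeq2, the replicate block, the fit of 20 libraries and the 5 fits that left out 1 library. Named genes were not followed in the fit of all 21 libraries, against a fold of 1.2, with other filters or with pooled heterozygotes. The cause of the moves in counts was not tested, other than fewer libraries in the fits that left 1 out.

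Replicate numbers recur in both groups, but the deviations of same-numbered libraries correlated at -0.14 and 0.02, so the numbers are not shown to pair samples. With a replicate block 1325 genes were called (autosomes lower 380 and higher 381), and the X shift over both pairs was -0.61. Mutant library 3 has no control of the same number, so the block fits it alone and the comparison rests on both pairs only. The spread is then drawn from very few libraries, so the larger count is no further support. The class of X genes by promoter motif was not run. Weakly expressed genes are limited by depth: 3 counts were 0.891 to 1.75 CPM.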
